A study of Mus musculus with 36 samples.

Results

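The genes described here are 40 genes of the unfolded protein response and the integrated stress response, the programmes by which a cell answers misfolded protein and blocked translation. They were chosen by symbol and matched to Ensembl identifiers through GENCODE M21, and all 40 were found among the 55487 genes of the deposited count table. They fall into 10 regulators of the integrated stress response, 5 enzymes of amino acid synthesis and one-carbon metabolism, 4 amino acid transporters, 4 sensors and transcription factors of the unfolded protein response, 13 chaperones and folding factors of the endoplasmic reticulum (ER), and 4 genes of ER-associated degradation. For one contrast, 17 of the 40 were taken as targets of the transcription factor Atf4 (the regulators without Atf4 and Ppp1r15b, the enzymes and the transporters) and set against the 13 chaperones.

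As background, phosphorylation of the translation factor eIF2 slows most protein synthesis while letting Atf4 be translated, and Atf4 then turns on genes for amino acid supply and redox balance. ER stress reaches the same point through the kinase PERK (gene Eif2ak3), and 2 further branches, Ern1 with Xbp1 and Atf6, turn on the ER chaperones. Other kinases feed Atf4 without ER stress, so the Atf4 targets and the chaperones can be read as separate outputs.

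RNA was measured in female mice, wild type or carrying the knockout that the study is about, which were either naive (no treatment) or had spared nerve injury, a model of neuropathic pain in which some branches of the sciatic nerve are cut. The dorsal root ganglion (DRG), which holds the cell bodies of sensory neurons, and the spinal cord each gave 5 naive and 4 injured libraries per genotype, 36 in all. The sources used here do not give age, time after injury, side or how the knockout was made. No label says that libraries came from separate animals, so p-values measure the spread between these libraries, which may be technical. Library totals were 21.34 to 27.27, in units of 1000000 counts. The titles of libraries A2 and A4 say wild type while their genotype field says knockout, and they were taken as knockout. All naive libraries have title codes starting with A, B or C, and all injured ones E or F. What the letters stand for is not given, so injury and title letter cannot be told apart. The naive mice are labelled as not treated, and no label names a sham operation. Atf3, a marker of injured neurons, was higher after injury in both tissues and genotypes, with log2 fold changes of 4.75 to 5.92. None of 8 sensory neuron markers had a mean under 0.1 counts per 1000000 (CPM) in any DRG group. The same was true in naive and injured wild-type spinal cord, so this does not tell the tissues apart.

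The promoters are shown because the elements they hold differ between the Atf4 targets and the chaperones, whichever way the genes moved. RefSeq windows of 300 bases (build GRCm38.p6, 250 bases before to 50 after the annotated start) were found for 35 of the 40 genes and 27025 genes in all, and both strands were searched. The C/EBP-ATF response element, written TGATGNAA, was present in 4 of 16 Atf4 targets with a window (Asns, Chac1, Slc7a11 and Trib3), in 0 of 11 chaperones and in 4.51% of all genes. The ER stress response element (CCAAT, then 9 bases, then CCACG) was present in 7 of 11 chaperones (Calr, Canx, Creld2, Dnajc3, Hsp90b1, Hspa5 and Pdia6), in Syvn1, in 0 of 16 Atf4 targets and in 0.137% of all genes. The short form of that element (ATTGG, then 1 base, then CCACG) was present in Dnajb11 and Herpud1 and in 0.0444% of all genes. Herpud1 held both its short form and a C/EBP-ATF element. The cyclic AMP response element TGACGTCA was present in Ppp1r15a alone among the 35 (2.03% of all genes), and TGACGTGG in none of them (0.714% of all genes). A match describes letters only and does not show binding. The 4 windows below carry the elements in capitals: Chac1 and Asns for the Atf4 targets, Hspa5 for the chaperones, and Herpud1 for both. Positions count from 0 at the annotated start.
Chac1: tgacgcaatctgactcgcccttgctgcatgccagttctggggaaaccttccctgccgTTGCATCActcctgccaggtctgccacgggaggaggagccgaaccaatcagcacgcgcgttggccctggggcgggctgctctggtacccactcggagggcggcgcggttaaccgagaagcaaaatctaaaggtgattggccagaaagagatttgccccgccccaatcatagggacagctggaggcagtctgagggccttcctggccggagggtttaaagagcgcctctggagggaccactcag
Asns: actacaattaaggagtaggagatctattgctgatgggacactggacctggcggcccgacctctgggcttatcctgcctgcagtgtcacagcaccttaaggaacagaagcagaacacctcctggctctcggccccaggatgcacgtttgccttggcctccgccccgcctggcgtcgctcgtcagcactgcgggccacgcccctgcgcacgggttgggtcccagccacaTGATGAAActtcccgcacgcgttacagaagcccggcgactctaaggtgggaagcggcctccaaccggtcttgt
Hspa5: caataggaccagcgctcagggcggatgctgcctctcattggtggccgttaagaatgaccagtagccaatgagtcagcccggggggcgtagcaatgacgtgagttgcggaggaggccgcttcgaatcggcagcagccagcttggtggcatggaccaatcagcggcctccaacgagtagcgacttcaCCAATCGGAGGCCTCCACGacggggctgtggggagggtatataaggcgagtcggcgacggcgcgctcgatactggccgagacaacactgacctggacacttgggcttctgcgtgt
Herpud1: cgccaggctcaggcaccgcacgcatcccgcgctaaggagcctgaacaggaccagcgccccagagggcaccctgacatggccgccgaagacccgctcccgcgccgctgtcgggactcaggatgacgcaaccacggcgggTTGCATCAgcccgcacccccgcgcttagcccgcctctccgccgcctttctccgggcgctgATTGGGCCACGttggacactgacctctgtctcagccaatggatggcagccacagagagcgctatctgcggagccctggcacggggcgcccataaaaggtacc
The Chac1 window lies at chr2:119350992-119351291 on the plus strand, with its element at -193 to -186, read on the opposite strand. The Asns window lies at chr6:7693160-7693459 on the minus strand, with its element at -23 to -16. The Hspa5 window lies at chr2:34771840-34772139 on the plus strand, with its element at -65 to -47. The Herpud1 window lies at chr8:94386179-94386478 on the plus strand, with the C/EBP-ATF element at -112 to -105 on the opposite strand and the ER stress element at -52 to -42.

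Levels between genes were compared as CPM per kilobase of merged exon length. In naive wild-type DRG the lectin chaperone Calr (104.5 ± 4.82 CPM per kb, SD, n = 5), the Hsp90 of the ER Hsp90b1 (102.8 ± 7.32), the lectin chaperone Canx (92.4 ± 4.76) and Hspa5 (82.4 ± 8.71) were highest. Asns, which makes asparagine, came next at 56.9 ± 1.88 CPM per kb, followed by Atf4 at 50.7 ± 2.53. Calr and Hsp90b1 differed by less than their SDs. The 4 lowest were Chac1 (1.56 ± 0.465 CPM per kb), Trib3 (1.3 ± 0.223), Sesn2 (1.24 ± 0.0739) and Cebpb (1.00 ± 0.235). Each of these 4 differed from the next by less than the larger SD of the pair, so their order is not resolved. In the naive wild-type spinal cord the same 4 chaperones led, at 82.3 to 109.1 CPM per kb, and Trib3 was lowest at 0.224 ± 0.0894.

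Most of the Atf4 targets were higher in injured than in naive wild-type DRG, with Chac1, Trib3 and Mthfd2 highest by fold change, while 3 of the 13 chaperones passed the test. By edgeR's quasi-likelihood test with Benjamini-Hochberg adjustment over 19496 genes (adjusted p under 0.05, here "called"), 20 of the 40 genes were called, 19 higher and 1 lower. Over all genes tested, 24.9% were called, 12.6% higher and 12.3% lower. Of the 17 Atf4 targets, 12 rose and none fell, with a median log2 fold change of 0.47. Of the 13 chaperones, 2 rose and 1 fell, with a median of 0.05. The median of all genes tested was -0.01. In 15 of the 40 genes the 4 injured libraries did not overlap the 5 naive ones, against 18% of all genes tested. In bulk tissue, fewer cells of a type and less RNA per cell cannot be told apart.

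The contrast showed in each library. The mean log2(CPM + 1) of the Atf4 targets was 4.56 ± 0.107 (SD, n = 5; 4.40 to 4.66) in naive and 5.18 ± 0.115 (n = 4; 5.02 to 5.30) in injured wild-type DRG. In knockout DRG it was 4.84 ± 0.0658 (4.79 to 4.94) in naive and 5.25 ± 0.106 (5.13 to 5.37) in injured libraries. In both genotypes every injured library lay above every naive library. The mean of the chaperones was 6.34 ± 0.0867 in naive and 6.41 ± 0.0558 in injured wild-type DRG, and 6.35 ± 0.0928 and 6.37 ± 0.0699 in the knockout, with overlapping ranges. In the spinal cord the group means of the Atf4 targets stayed between 4.57 and 4.63 and those of the chaperones between 6.34 and 6.41. These list means are descriptions and carry no test.

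**Figure D1:**
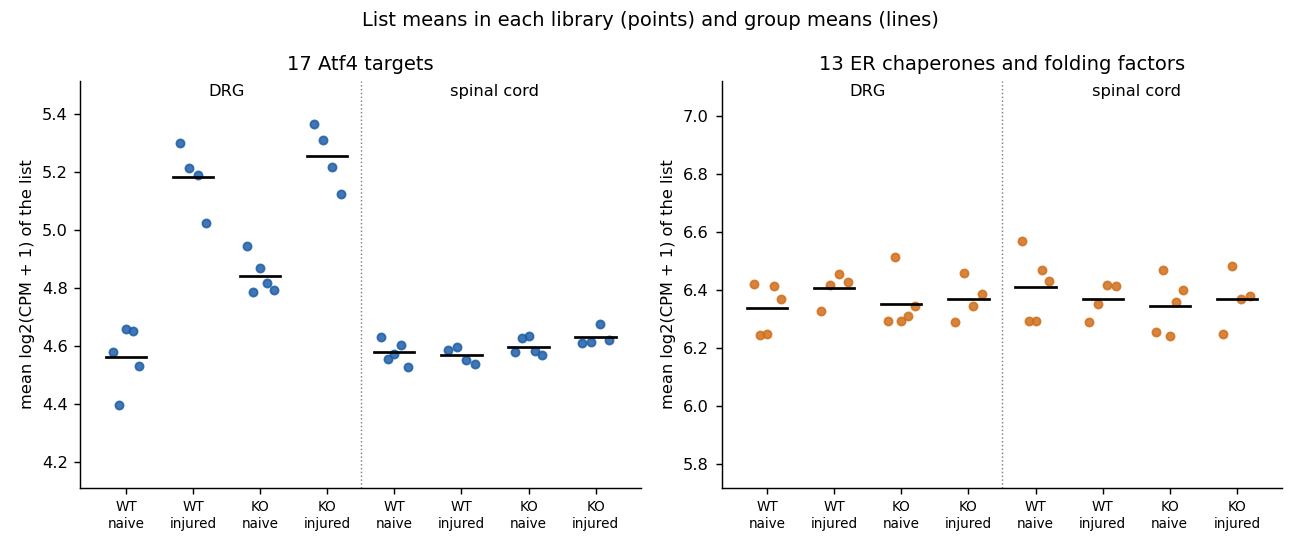
Mean log2(CPM + 1) of 17 Atf4 targets (left) and 13 ER chaperones (right) in each of the 36 libraries, by genotype (WT, wild type; KO, knockout) and injury; points are libraries and lines are group means, and both vertical axes span the same range and do not start at 0. In the DRG the injured libraries lie above the naive ones for the Atf4 targets and overlap them for the chaperones.

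Among the regulators, 7 of 10 rose in wild-type DRG and none fell (median 0.46). Chac1, an enzyme that breaks down glutathione, was at 2.19, 2, 3.10, 3.62 and 1.89 CPM in naive and 14.6, 14.5, 14.7 and 11.4 CPM in injured libraries. The groups did not overlap, and the log2 fold change was 2.43 ± 0.17 (SE; edgeR adjusted p = 3.24e-09), the largest of the 40. Atf4 itself was at 112 to 126 CPM (median 122) in naive and 167, 179, 162 and 159 CPM in injured libraries, again without overlap (0.48 ± 0.06; adjusted p = 3.95e-06). Trib3, a pseudokinase that restrains the response, was at 2.21 to 3.51 CPM in naive and 5.24 to 6.95 CPM in injured libraries (1.17 ± 0.16). Sesn2, a stress-induced inhibitor of mTORC1, was at 3.91 to 4.51 and 6.35 to 9.02 CPM (0.92 ± 0.13). The transcription factors Atf5 (0.44 ± 0.08) and Ddit3, also called CHOP (0.43 ± 0.07), rose by less, and their groups did not overlap either.

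Cebpb, a transcription factor that pairs with Atf4, was called at 0.71 ± 0.22 (adjusted p = 0.0202) on 1.10 to 1.96 CPM in naive and 1.54 to 3.21 CPM in injured libraries, which overlapped, and it was not called without B1, E3 or F3 or with only the groups compared. It shares 312 of its 1504 exon bases with Tmem189 on the opposite strand, a gene at a mean of 86.9 CPM, and the sources used here do not say whether the counting used strand. The 3 regulators that were not called were Ppp1r15a, which helps to dephosphorylate eIF2 again (0.19 ± 0.07; adjusted p = 0.0636), its constitutive counterpart Ppp1r15b (0.08 ± 0.10) and Ddit4, an inhibitor of mTORC1 (-0.01 ± 0.13).

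Of the 5 enzymes, 4 rose. Mthfd2, which works in mitochondrial folate metabolism, was at 18.8 to 23.9 CPM (median 20.1) in naive and 46.9, 42.1, 45.1 and 38.2 CPM in injured wild-type DRG (1.07 ± 0.08; edgeR adjusted p = 1.1e-08). Asns was at 148 to 162 CPM (median 155) in naive and 216, 209, 204 and 206 CPM in injured libraries (0.42 ± 0.04; adjusted p = 7.08e-07). Shmt2, which passes a carbon unit from serine to folate, rose by 0.55 ± 0.07 and Psat1, which works in serine synthesis, by 0.44 ± 0.07. In these 4 genes the naive and injured libraries did not overlap. Phgdh, the enzyme before Psat1 in serine synthesis, was at 54.6 to 66.4 and 58.6 to 71.0 CPM, and its log2 fold change of 0.09 ± 0.07 was not called.

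Of the 4 transporters, 2 rose, and their libraries overlapped. Slc7a5, which imports large neutral amino acids, was at 23.4, 17, 22.6, 25.2 and 18 CPM in naive and 43.8, 30.7, 36.2 and 21.4 CPM in injured wild-type DRG (0.64 ± 0.16; edgeR adjusted p = 0.00712). Slc3a2, its heavy chain, was at 67.8 to 90.8 and 83.5 to 118 CPM (0.35 ± 0.09; adjusted p = 0.00706). Slc7a11, the cystine importer that shares the same heavy chain, was at 39.4, 6.86, 58.0, 20.8 and 80.8 CPM in naive and 102, 77.2, 96.7 and 69.7 CPM in injured libraries. Its log2 fold change of 1.06 ± 0.44 was not called (adjusted p = 0.0883). Over the 18 DRG libraries it ranged 27 times from lowest to highest, the widest range of the 40. Slc7a1, a carrier of arginine and lysine, was at 90.8, 68.6, 106, 108 and 65.2 CPM in naive and 162, 75, 163 and 86.5 CPM in injured libraries, and was not called (0.47 ± 0.20; adjusted p = 0.106).

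Of the 4 sensors, 3 rose. Eif2ak3, the kinase PERK, was at 32.2 to 42.5 CPM in naive and 57.1, 40.5, 57.9 and 43.1 CPM in injured wild-type DRG (0.40 ± 0.10; edgeR adjusted p = 0.00628). Xbp1, whose mRNA is spliced by the Ern1 protein, was at 71.9, 64.6, 62.6, 73.8 and 74.3 CPM in naive and 83.0, 90.7, 94.0 and 86.4 CPM in injured libraries, without overlap (0.35 ± 0.09; adjusted p = 0.00491). Ern1 rose by 0.20 ± 0.07, a call lost without B3 or F1, with no filter, with only the groups compared and with a replicate block by column number. Atf6, the other sensor of the ER membrane, was at -0.02 ± 0.09 and was not called. Gene counts do not show how much of the Xbp1 mRNA was spliced.

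Among the 13 chaperones, Sdf2l1, a partner of the chaperone BiP (gene Hspa5), was at 6.50 to 9.30 CPM in naive and 9.46, 12.4, 11.4 and 11.8 CPM in injured wild-type DRG, without overlap (0.53 ± 0.11; edgeR adjusted p = 0.00101). Dnajb11, a co-chaperone of BiP, rose by 0.18 ± 0.06 (adjusted p = 0.0397), a call lost in 8 of 27 alternatives: without A3, C1, E3 or F3, with no filter, with only the groups compared, with the summed blood markers as a covariate and with a replicate block by column number. Dnajc3, a co-chaperone also known as an inhibitor of PERK, was at 119 to 136 CPM in naive and 97.3, 107, 111 and 117 CPM in injured libraries and fell by 0.26 ± 0.06 on the log2 scale (adjusted p = 0.00451). Hspa5, which encodes BiP and whose ER stress element is shown above, was at 375, 310, 308, 387 and 361 CPM in naive and 325, 361, 391 and 383 CPM in injured libraries, which overlapped throughout (0.07 ± 0.09; adjusted p = 0.66). The 7 chaperones with that element had log2 fold changes of -0.26 (Dnajc3) to 0.19 (Creld2, adjusted p = 0.446). Hsp90b1 was at -0.10 ± 0.07, the disulphide isomerase Pdia4 at 0.03 ± 0.06, Calr at 0.03 ± 0.06 and Canx at 0.02 ± 0.06, none of them called. The Hsp70-like Hyou1 (0.18 ± 0.11), the co-chaperone Dnajb9 (0.05 ± 0.07), the secreted factor Manf (0.05 ± 0.09) and the disulphide isomerase Pdia6 were not called either. Of the 4 degradation genes, Herpud1, a membrane adaptor, rose by 0.15 ± 0.05 (adjusted p = 0.0425), a call lost in 9 of 27 alternatives: the same 4 fits and those without A2, A3, C1, C2 or E3. The ubiquitin ligase Syvn1 (0.23 ± 0.11), its partner Sel1l (adjusted p = 0.996) and the mannosidase-like Edem1 (0.04 ± 0.06) were not called.

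**Figure D2:**
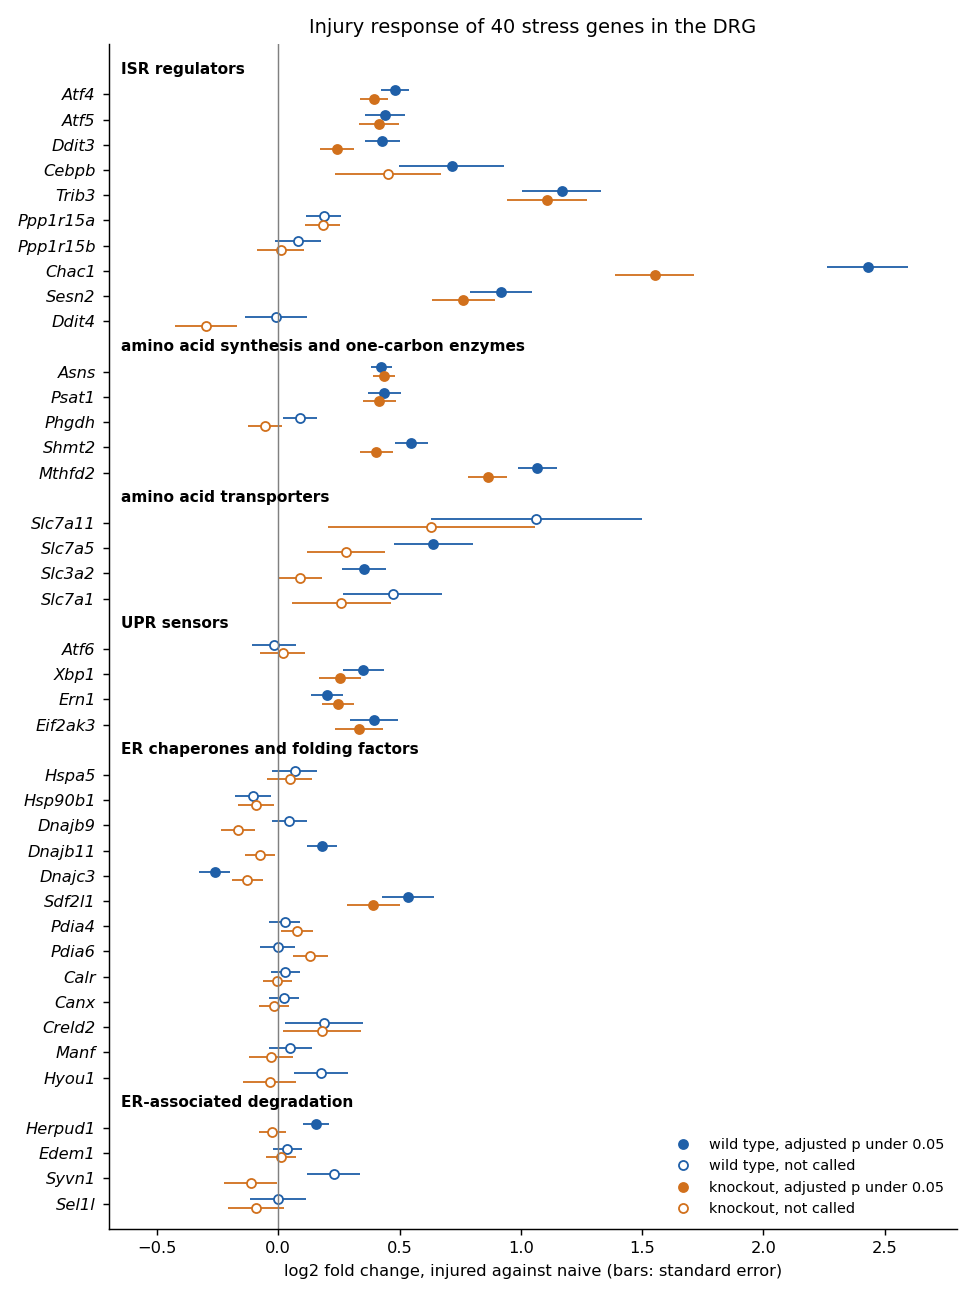
Log2 fold change of injured against naive DRG for the 40 genes by role, with its standard error, in wild type (blue) and knockout (orange); filled points passed an adjusted p of 0.05 in edgeR and open points did not. Most filled points lie among the regulators and enzymes, with Chac1 farthest right at 2.43 in wild type and 1.55 in knockout.

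In knockout DRG, 14 of the 40 genes were called after injury, all higher, against 28.5% of all genes tested (15.1% higher, 13.3% lower). All 14 were also called higher in wild type, and they are 70% of the 20 called there. The 6 called in wild type alone were Cebpb, Dnajb11, Dnajc3, Herpud1, Slc3a2 and Slc7a5. Of the 17 Atf4 targets, 9 rose (median 0.42), and of the 13 chaperones only Sdf2l1 did (0.39 ± 0.11; median of the list -0.02; median of all genes tested 0.01). Chac1 was at 3.85, 3.20, 3.98, 3.35 and 4.34 CPM in naive and 12.3, 12.1, 10.8 and 8.77 CPM in injured knockout libraries, without overlap (1.55 ± 0.16; edgeR adjusted p = 7.92e-07). Ddit3 rose by 0.24 ± 0.07, a call lost without E2 or E4, and Xbp1 by 0.25 ± 0.09, a call lost without any 1 of A2, B2, B4, C2, E4, F2 and F4, with no filter and with the blood covariate. Mthfd2 was at 23.2 to 27.4 and 39.4 to 48.6 CPM (0.86 ± 0.08), and Asns at 149 to 155 and 195 to 214 CPM (0.44 ± 0.04). Slc7a5 (0.28 ± 0.16; adjusted p = 0.219) and Slc3a2 (0.09 ± 0.09; adjusted p = 0.519) were not called. In 14 of the 40 genes the groups did not overlap, against 32.4% of all genes tested.

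No gene of the 40 was called for a difference between genotypes in its response to injury by edgeR's interaction test in the DRG, where 0.0256% of all genes were called. At an unadjusted p under 0.05 there were 5 of 40, and DESeq2 called 0. No share of all genes at the unadjusted threshold is given, so that count is not read as a result. Chac1 had the largest difference, with a response lower in the knockout by -0.88 ± 0.23 (unadjusted p = 0.00142; adjusted p = 0.475). Slc7a5 and Slc3a2, called in wild type and not in knockout, had differences of -0.36 ± 0.23 and -0.27 ± 0.13 (adjusted p = 0.846 and 0.834). All differences are knockout response minus wild-type response.

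**Figure D3:**
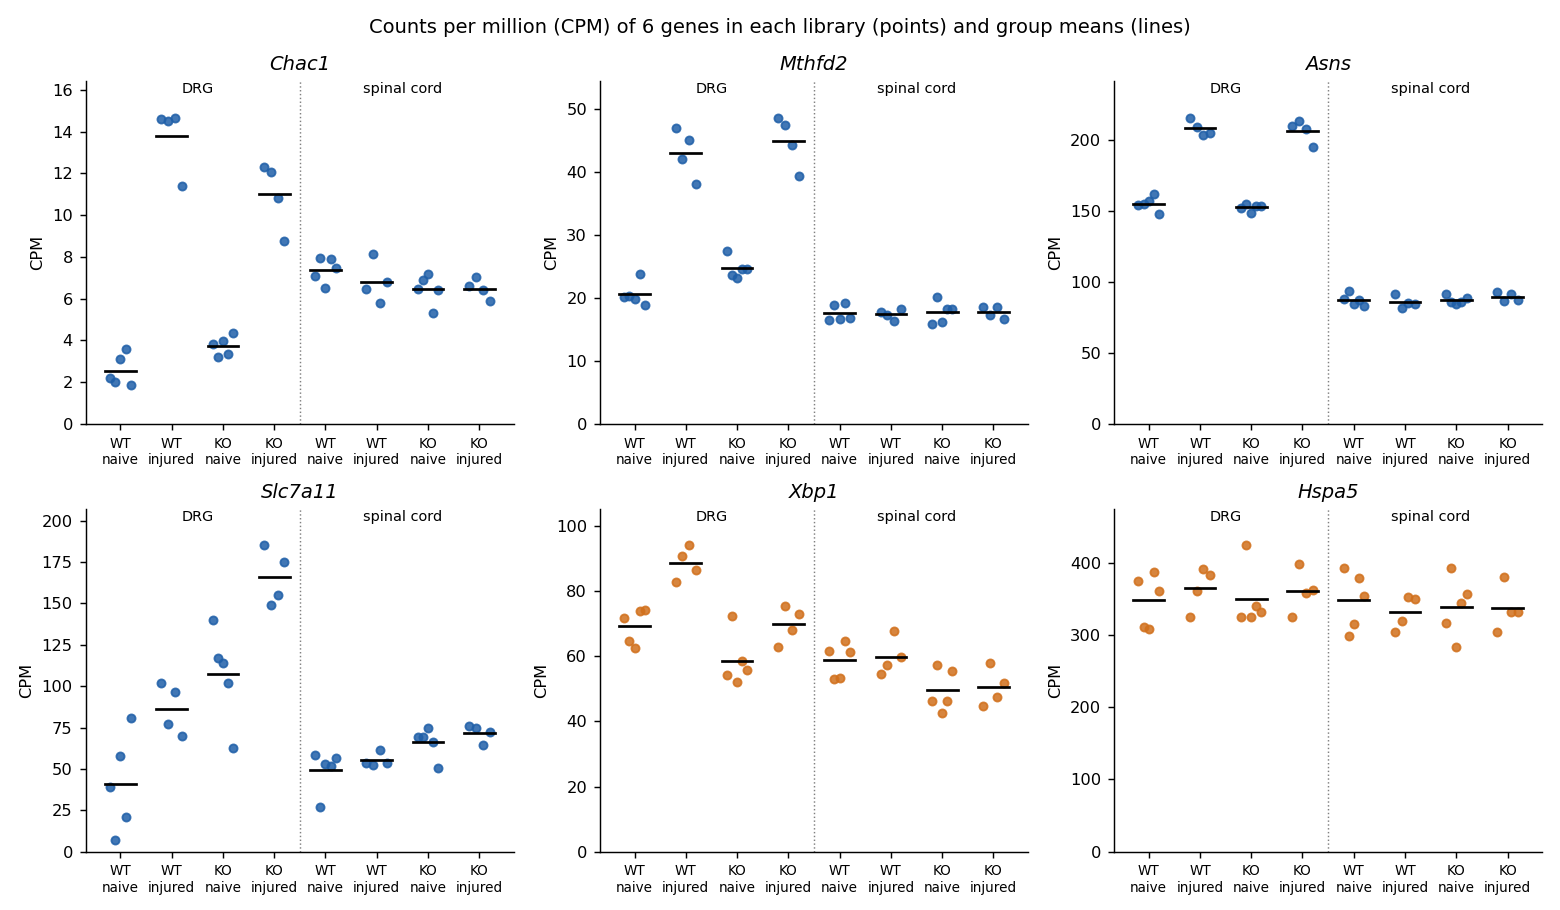
CPM of Chac1, Mthfd2, Asns, Slc7a11, Xbp1 and Hspa5 in each library (points) with group means (lines), by tissue, genotype and injury, on linear axes that start at 0. Chac1, Mthfd2 and Asns separate injured from naive DRG in both genotypes, Slc7a11 spreads from 6.86 to 80.8 CPM in naive wild-type DRG, and Hspa5 overlaps across all groups.

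Markers of several cell types moved with injury in the same libraries. All 9 macrophage markers were called higher in both genotypes in the DRG, and their summed CPM was 139 to 269 in naive and 395 to 699 in injured wild-type libraries, and 97.3 to 170 and 355 to 486 in knockout libraries. Of the 6 plasma and B cell markers tested, 1 was called higher in wild type and 2 in knockout (medians -0.43 and -0.15), while the summed CPM of the 7 listed was 42.2 to 78.5 in naive and 141 to 169 in injured wild-type libraries. Of 8 sensory neuron markers, 1 was called higher and 3 lower in wild type and 1 higher and 5 lower in knockout, with summed CPM of 5641 to 7866 in naive and 5792 to 8617 in injured wild-type libraries, and 7938 to 9552 and 7137 to 8656 in knockout libraries. Of 7 markers of satellite glia and astrocytes, 3 were called higher and 1 lower in both genotypes, with summed CPM of 930 to 1327 and 916 to 1333 in naive and injured wild-type libraries. Of 5 skeletal muscle markers, 2 were called lower in wild type, with summed CPM of 2.06 to 74.1 and 1.26 to 11.4. Their part in the results above was not tested. In the spinal cord the 9 macrophage markers summed to 160 to 191 CPM in naive and 352 to 390 CPM in injured wild-type libraries. Their relation to the 40 genes was not tested there either.

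Genes of the same pathways outside the 40 were taken from lists. Of 17 further genes of the Atf4 pathway tested in wild-type DRG, 5 rose and none fell (median 0.28). Over all genes tested there, 24.9% were called, 12.6% higher and 12.3% lower. Eif4ebp1, which restrains cap-dependent translation, rose by 1.11 ± 0.11 (edgeR adjusted p = 7.11e-07). Cth, which makes cysteine, was at 0.498 to 0.731 CPM in naive and 1.59 to 2.34 CPM in injured libraries (1.72 ± 0.18; adjusted p = 7.98e-07), and the neutral amino acid carrier Slc1a4 rose by 0.74 ± 0.17. The cytosolic aminoacyl-tRNA synthetases, which charge tRNAs with their amino acids, rose in 10 of 11 (median 0.25), led by Cars (0.61 ± 0.08; adjusted p = 1.65e-05). Of the 7 synthetases with a promoter window, 5 held the C/EBP-ATF element (Aars, Gars, Iars, Tars and Yars). Iars, named after its value was seen, was the 1 synthetase not called (0.10 ± 0.10).

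Of 17 further folding and secretion genes of the ER, 3 rose and none fell in wild-type DRG (median 0.03), among them Sec24d, a coat protein of vesicles leaving the ER (0.48 ± 0.07), and the disulphide isomerase P4hb (0.22 ± 0.04). Of 12 further degradation genes, Os9 alone was called (0.25 ± 0.08), and of 6 transducers and proteases Creb3 (0.24 ± 0.06) and Atf6b (0.29 ± 0.10). None of 9 genes for eIF2, its other kinases and eIF2B was called. Among 10 cytosolic heat shock genes, Hspb1 alone was called (1.11 ± 0.12), and among 7 mitochondrial chaperones and proteases Trap1 alone (-0.22 ± 0.06). Each of these counts compares with 24.9% of all genes called in wild-type DRG (12.6% higher, 12.3% lower). In knockout DRG, 4 of the 17 Atf4 pathway genes rose and the glutamine carrier Slc1a5, named after its value was seen, fell by 0.39 ± 0.10, and 6 of 11 synthetases rose. Over all genes tested in knockout DRG, 28.5% were called, 15.1% higher and 13.3% lower. There 3 of 10 heat shock genes fell, among them Hsph1, which fell by 0.44 ± 0.12, and Hspb1 rose by 0.84 ± 0.12.

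Before injury, 14 of the 40 genes were called between knockout and wild-type DRG, 13 higher and 1 lower in the knockout, against 28.2% of all genes tested (12.8% higher, 15.4% lower). All 4 transporters were higher: Slc7a11 by 1.37 ± 0.42, Slc7a1 by 0.64 ± 0.19, Slc7a5 by 0.57 ± 0.16 and Slc3a2 by 0.41 ± 0.09 (edgeR adjusted p = 0.025, 0.024, 0.0145 and 0.00315). Slc7a11 was at 140, 117, 114, 102 and 62.9 CPM in naive knockout libraries, which overlapped the wild-type values given above through its lowest value. Slc7a5 was at 29.6 to 35.1 CPM and Slc3a2 at 97.4 to 112 CPM in naive knockout libraries, both above all naive wild-type libraries. Slc7a1 was at 121 to 149 CPM, also without overlap.

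Ddit4 was at 67.9, 62.3, 61.6, 82.5 and 48.5 CPM in naive knockout and 44.7, 40.6, 47.2, 54.0 and 39.4 CPM in naive wild-type libraries (0.52 ± 0.12; edgeR adjusted p = 0.00677). Chac1 (0.55 ± 0.17), Mthfd2 (0.27 ± 0.08) and Shmt2 (0.19 ± 0.07) were the other Atf4 targets called, 8 of 17 in all, while Atf4 (0.05 ± 0.05), Asns (-0.02 ± 0.04) and Trib3 (0.07 ± 0.16) were not. The median of the 17 was 0.09, that of the chaperones -0.03 and that of all genes tested -0.02. Of the chaperones, the Hsp70-like Hyou1 (0.36 ± 0.10) and the co-chaperone Dnajb9 (0.22 ± 0.07) were higher. Syvn1 (0.38 ± 0.10), Eif2ak3 (0.31 ± 0.09) and Atf6 (0.24 ± 0.09) were higher too, and Xbp1 was lower by -0.25 ± 0.08 (adjusted p = 0.0332). In 11 of the 40 genes the groups did not overlap, against 18.7% of all genes tested.

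Markers of several cell types moved with genotype in the same libraries. All 5 blood markers were called lower in naive knockout DRG, with a summed CPM of 191 to 609 against 736 to 3536 in wild type, and all 6 neutrophil markers were lower as well (16.3 to 61.9 against 67.4 to 383 CPM). Of 9 macrophage markers 6 were lower (97.3 to 170 against 139 to 269 CPM), and of 5 fibroblast markers 3 (1913 to 2389 against 2103 to 3823 CPM). Of 8 sensory neuron markers 4 were called higher and none lower in the knockout, and their sums, 7938 to 9552 against 5641 to 7866 CPM, did not overlap. Of 7 markers of satellite glia and astrocytes, 4 were higher and 1 lower (918 to 1083 against 930 to 1327 CPM). With the log of the blood sum as a covariate in the fit, 0 of the 40 genes were called, where 2.85% of all genes tested were. The log2 fold change was then 0.10 ± 0.17 for Slc7a5, 0.19 ± 0.25 for Slc7a1 and 0.13 ± 0.19 for Chac1, and 1.5 ± 0.66 for Slc7a11 (adjusted p = 0.885, 0.841, 0.864 and 0.334). The count was 5 without A2, 8 without A3 and 5 without C1, the library with the highest blood sum. Without A2 and A4 together it was 4, where 13.3% of all genes tested were called, against 28.2% with all libraries. The counts without 1 library are given without such a share, so they do not set the 40 apart from other genes. Slc3a2, Ddit4, Slc7a5 and Syvn1 stayed called without any 1 library, and the other 10 were each lost without at least 1. Genotype and these marker levels cannot be told apart in the naive DRG.

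**Figure D4:**
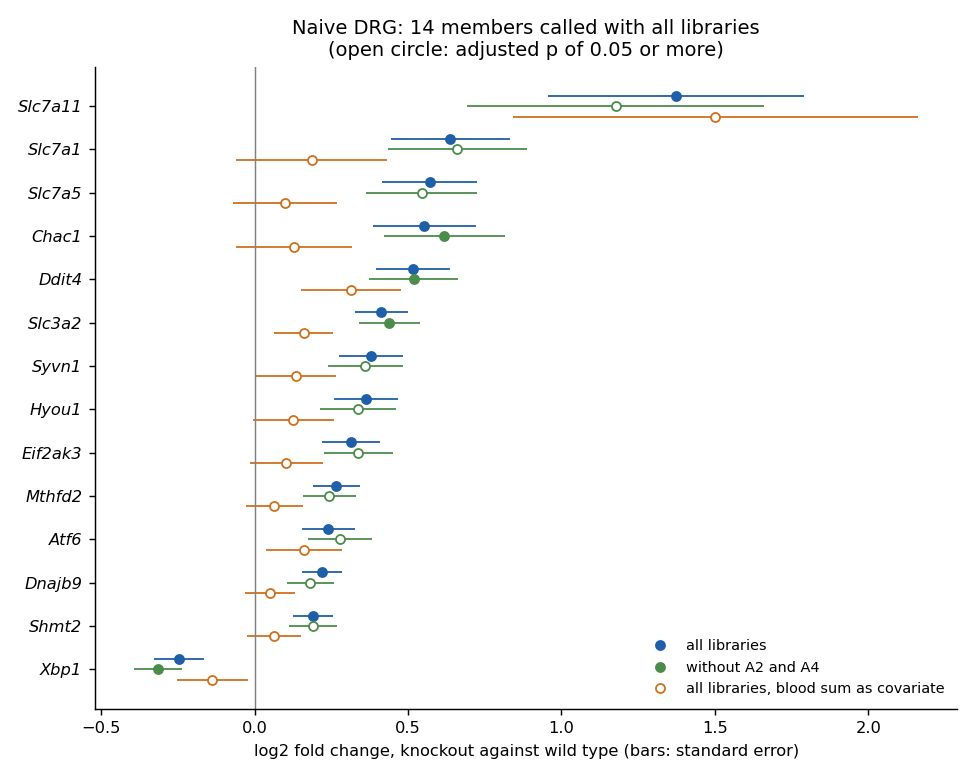
Log2 fold change of knockout against wild type in naive DRG, with its standard error, for the 14 genes called with all libraries, as fitted with all libraries (blue), without A2 and A4 (green) and with the blood sum as a covariate (orange); filled points passed an adjusted p of 0.05. No orange point is filled and 4 green points are (Chac1, Ddit4, Slc3a2 and Xbp1).

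After injury, 1 of the 40 genes was called between knockout and wild-type DRG, against 5.09% of all genes tested (2.39% higher, 2.7% lower). This was Xbp1, at 62.9, 75.4, 68.0 and 72.9 CPM in injured knockout and 83.0 to 94.0 CPM in injured wild-type libraries, which did not overlap (-0.34 ± 0.09; edgeR adjusted p = 0.0332). With the blood covariate it was -0.32 ± 0.09 (adjusted p = 0.0428), and it was not called without E2, E3, F2 or F3 or with the title letter as a block. None of the Atf4 targets or chaperones was called, with medians of -0.0033 and -0.0097. Slc7a11 was at 185, 149, 155 and 175 CPM in injured knockout libraries, all above the injured wild-type ones, with a log2 fold change of 0.94 ± 0.46 (adjusted p = 0.246).

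In the spinal cord, injury called none of the 40 genes in either genotype, by edgeR or by DESeq2. Over all genes tested, 2.88% were called in wild type and 4.42% in knockout. At an unadjusted p under 0.05 there were 3 of 40 in each genotype: Atf4, Hyou1 and Edem1 in wild type and Ddit3, Slc7a5 and Edem1 in knockout. These unadjusted counts are given without a share of all genes at the same threshold and are not read as a result. The 9 wild-type libraries held Chac1 at 5.82 to 8.13 CPM, with naive and injured values overlapping (-0.12 ± 0.10; adjusted p = 0.754). Mthfd2 was at 16.6 to 19.2 CPM in naive and 16.3 to 18.2 CPM in injured libraries (-0.02 ± 0.07). Asns was at -0.03 ± 0.04, Sdf2l1 at 0.08 ± 0.16 and Hspa5 at -0.07 ± 0.10. The medians of the Atf4 targets and chaperones were -0.02 and -0.05 in wild type and 0.04 and 0.02 in knockout. With the blood covariate, 1 gene of the 40 was called in the knockout cord, where 3.55% of all genes tested were.

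The difference between the tissues was itself tested, in one fit of all 36 libraries. The injury response was larger in DRG than in cord for 13 of the 40 genes in wild type and smaller for 1, against 12.5% of all genes called (5.59% larger, 6.92% smaller). Of the 17 Atf4 targets, 11 responded more in DRG, led by Chac1 (2.54 ± 0.20; edgeR adjusted p = 7.85e-12), Trib3 (1.53 ± 0.38) and Mthfd2 (1.07 ± 0.11). Atf4 (0.57 ± 0.07) and Eif2ak3 (0.40 ± 0.12, a call lost without E5) did as well. None of the chaperones was called with a larger response in DRG, and Dnajc3 had a smaller one (-0.26 ± 0.09; adjusted p = 0.0371), a call lost without any 1 of 24 libraries. In knockout, 9 responded more in DRG and 1, Dnajb9, less (-0.25 ± 0.08, a call lost without any 1 of 26 libraries), against 17.2% of all genes (6.69% larger, 10.5% smaller), with Chac1 at 1.51 ± 0.20 and Mthfd2 at 0.82 ± 0.11. The 9 were Atf4 and 8 Atf4 targets, of which Psat1 was not called without E2.

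**Figure D5:**
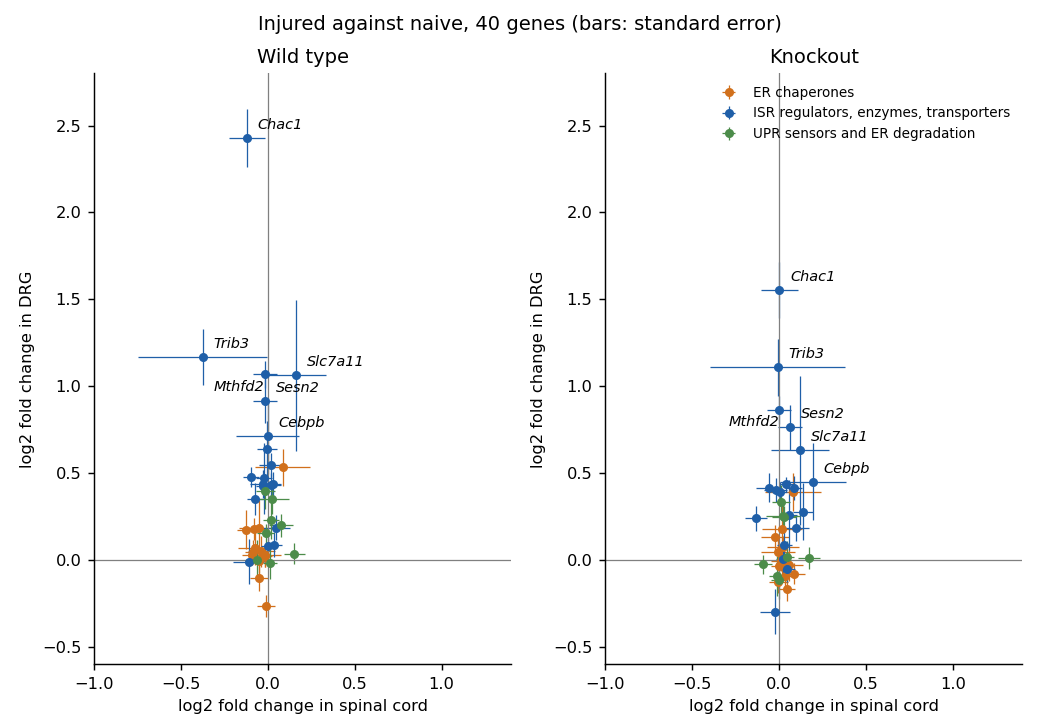
Log2 fold change of injured against naive libraries in DRG (vertical) and spinal cord (horizontal) for the 40 genes, in wild type (left) and knockout (right); bars are standard errors and colours mark roles. The points spread along the DRG axis, up to 2.43 for Chac1 in wild type, and stay near 0 along the cord axis apart from Trib3, which has a wide error there at -0.37 ± 0.37.

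Few of these genes were called between genotypes in the cord. In naive cord Phgdh alone was called, higher in the knockout by 0.13 ± 0.04 (edgeR adjusted p = 0.034) at 79.5 to 90.5 against 73.8 to 81.4 CPM, where 19.7% of all genes were called (9.78% higher, 9.94% lower). In injured cord Slc7a5 was at 40.3, 35.3, 43.1 and 37.4 CPM in knockout and 34.2, 33.9, 33.8 and 31.4 CPM in wild-type libraries (0.23 ± 0.06; adjusted p = 0.0201), and Slc7a1 at 49.7 to 54.8 against 43.6 to 48.7 CPM (0.17 ± 0.05; adjusted p = 0.0298). These 2 of 40 compare with 6.26% of all genes (2.95% higher, 3.31% lower). Phgdh was not called without A7, A8, B5, B6 or C5, by limma (adjusted p = 0.121) or with the blood covariate (adjusted p = 0.461). Slc7a5 was not called without E6, F6 or F7. Slc7a1 was not called without E6, F5, F6, F7 or F8, by limma (adjusted p = 0.052) or with the blood covariate (adjusted p = 0.0566). Of 5 blood markers, 4 were called lower in naive knockout cord, with a summed CPM of 137 to 172 against 170 to 482 in wild type, and none in injured cord. With the log of the blood sum as a covariate, 0 of the 40 were called in naive cord and 1 in injured cord. Of all genes tested, 2.09% and 5.13% were called there. The part of blood in these results was not otherwise tested. The interaction of genotype and injury in cord called none of the 40 by edgeR or DESeq2, and 0% of all genes tested by edgeR. None of the 40 had an unadjusted p under 0.05. That count is given without a share of all genes and is not read as a result.

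At rest the tissues differed in most of these genes, as they did in most of all genes tested. In naive wild type, 15 of the 40 were higher and 19 lower in DRG than in cord, against 76.7% of all genes called (40.1% higher, 36.6% lower). Trib3 was higher in DRG by 2.45 ± 0.24 and Ppp1r15a by 1.28 ± 0.07, while Sesn2 was lower by -2.08 ± 0.10, Chac1 by -1.62 ± 0.14 and Psat1 by -1.20 ± 0.06 (edgeR adjusted p = 1.83e-11, 2.81e-18, 4.9e-20, 1e-12 and 4.52e-20). Chac1 in injured wild-type DRG, at 11.4 to 14.7 CPM, was above its level in every cord library, where it ranged from 5.32 to 8.13 CPM. Sesn2 stayed below its cord level, at 6.35 to 9.02 CPM in injured wild-type DRG against 14.6 to 19.3 CPM in the cord libraries. These CPM values were scaled within each tissue. Hspa5 (-0.08 ± 0.09), Xbp1 (0.15 ± 0.09) and Mthfd2 (0.14 ± 0.07) were not called between the tissues. Among the chaperones, Dnajc3, Manf, Pdia4 and Pdia6 were higher in DRG and 8 were lower, from Calr (-0.14 ± 0.06) to Hyou1 (-0.98 ± 0.08). The Calr call was lost without A5 or B7, with only the groups compared and with library totals as the only scaling. Hsp90b1 lost its call without A5, B1 or B3 and with library totals, Creld2 with library totals, and Pdia6 with the blood covariate. With library totals, 18 of the 40 were higher and 15 lower in DRG.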

How the data were processed

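RNA-seq of 36 libraries of mouse DRG and spinal cord was deposited as 2 tables of the whole series. Per the submitters' processing notes, the authors used FastQC 0.11.5, HISAT2, RSEM and the GRCm38 build. The sources used here do not give the annotation or strand setting. The first table holds estimated counts per gene, which the authors deposited without normalization and of which 16% are not whole. The column of E1 was deposited with decimal commas in 9150 cells as another number format; these were read as decimals, and 1 cell broken by its separators was restored as 1780.86. The second table holds a TMM-scaled signal per gene deposited by the authors, used only for an alternative. Gene names came from GENCODE M21.

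Counts were rounded, filtered with filterByExpr, scaled by TMM and tested with edgeR 4.0.16 (robust quasi-likelihood, R 4.3.3), each tissue in a fit of 18 libraries and 4 groups and the tissue comparisons in a fit of all 36; each SE was obtained as the absolute log2 fold change over sqrt(F). A gene was called where its p, adjusted by the Benjamini-Hochberg method across every gene in the fit, fell under 0.05. Values per library are CPM on TMM-scaled library sizes within a tissue. The scripts were tested on simulated data. Alternatives used DESeq2 1.42.0, limma 3.58.1, other scalings and filters, fewer groups, blocks, a blood covariate and leaving out libraries. Libraries are named by the codes of their titles; A2 and A4 were taken as knockout from the genotype field, which their titles contradict. The check of the targeted gene's level is not reported here. Values per library are given for genes with the lowest adjusted p in each role and for those called between genotypes, and up to 3 genes are named from each other list. The 40 genes, the lists and the tests were chosen with earlier results of these data known.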

Additional observations from a re-analysis of the deposited data

Results flagged for a closer look

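These results stood out by 1 of 2 criteria, and no explanation was weighed for any of them. The first was a difference between the tissues in the response to injury, tested as an interaction in the fit of all 36 libraries (edgeR quasi-likelihood, adjusted p under 0.05). As DRG minus cord on the log2 scale, the wild-type differences were Atf4 0.57, Atf5 0.46, Ddit3 0.40, Trib3 1.53, Chac1 2.54, Sesn2 0.92, Asns 0.44, Psat1 0.39, Shmt2 0.52, Mthfd2 1.07, Slc7a5 0.63, Slc3a2 0.42, Eif2ak3 0.40, Dnajc3 -0.26. The knockout differences were Atf4 0.35, Atf5 0.43, Ddit3 0.34, Chac1 1.51, Sesn2 0.66, Asns 0.36, Psat1 0.29, Shmt2 0.39, Mthfd2 0.82, Dnajb9 -0.25. The second was a library far from the rest of its group by Dixon's criterion, which chance meets in about 1 of 20 groups: 17 of 320 gene and group pairs met it, where 16 would be expected. In naive knockout DRG, library A4, whose title disagrees with its genotype field, was highest for Hspa5 (423.8 CPM, others 325 to 340.4), Calr (352.2, others 297.6 to 307.2) and Herpud1 (41.11, others 36.61 to 37.7), and C2 was lowest for Ppp1r15b (46.95 CPM). In injured wild-type DRG, F3 was lowest for Chac1 (11.37 CPM, others 14.49 to 14.66) and F1 for Dnajb11 (33.06 CPM), and in injured knockout DRG F2 was lowest for Sdf2l1 (8.404 CPM). In naive wild-type cord, A7 was lowest for Slc7a11 (27.06 CPM, others 51.79 to 58.45), and C5 for Psat1 (171.1 CPM) and Slc7a5 (29.73 CPM). In naive knockout cord, B6 was highest for Slc7a5 (38.05 CPM). In injured wild-type cord, F5 was highest for Ppp1r15b (66.97 CPM), while F7 was lowest for Slc7a5 (31.44 CPM) and highest for Dnajb9 (53.12 CPM). In injured knockout cord, F6 was highest for Atf4 (93.61 CPM), and E6 was lowest for Cebpb (0.9997 CPM) and highest for Atf6 (66.66 CPM).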

How the results depend on the processing

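Of 110 calls of a gene in a comparison, 73 held in every alternative that was run, 37 were lost in at least 1, and none changed sign. The number of the 40 genes called after injury in DRG was 20 in wild type (16 to 21 across the alternatives, 18 to 21 without 1 library) and 14 in knockout (13 to 19, and 13 to 15). The 16 and the 19 came with only the groups compared, where 17% and 39.7% of all genes tested were called. The main fit called 24.9% and 28.5%. Percentages below are likewise shares of all genes tested. Counts without 1 library are given without such a share. The naive genotype count in DRG, 14 (28.2%), was 4 without A2 and A4 (13.3%) and 0 with the blood covariate (2.85%). It was 5 to 17 without 1 library, with the low values without A2, A3 or C1. The injured genotype count in DRG, 1 (5.09%), was 2 with only the groups compared (3.48%) and 0 with the title letter as a block (4.53%). It was 0 to 2 without 1 library. In cord, injury in the knockout gave 1 with the blood covariate (3.55%). The naive genotype count in cord, 1 (19.7%), was 2 by DESeq2 (10.1%), 2 with library totals (19.3%) and 2 by limma (21.6%). The DESeq2 shares are of genes not filtered beforehand. The 2 by limma were both lower in the knockout, and neither was Phgdh. The count was 0 with the blood covariate (2.09%), 3 with the title letter as a block (17.9%), and 0 to 4 without 1 library. The injured genotype count in cord, 2 (6.26%), was 4 by DESeq2 (3.6%), 4 with only the groups compared (7.27%) and 1 by limma (5.78%). It was 1 with the blood covariate (5.13%), 4 with the letter block (5.71%), and 0 to 4 without 1 library. Apart from the settings that use fewer libraries, the cause was not tested. The column names carry replicate numbers. Deviations from the group mean in DRG and cord libraries of the same number correlated over 0.1 in 15 of 18 pairs (lowest -0.0144, median 0.23). The median for other pairs was -0.0541. Deviations cancel within a group, so this value is tied to the first and is no separate baseline. Libraries with the same number thus tended to deviate together. No label says what the number stands for, so the main fit of all 36 libraries did not pair them and treated the tissues as independent. With that replicate block across tissues, the counts were 37 between tissues and 17 and 10 for the difference in injury response in wild type and knockout. Without it they were 34, 14 and 10. The shares of all genes called were 76.8%, 12% and 16.5% with the block and 76.7%, 12.5% and 17.2% without it. Dnajb9, 1 of the 10 called in knockout without the block, lost its call under the block. A replicate block by column number within a tissue, added after seeing the data, gave 18, 14, 16 and 2 in the 4 DRG comparisons above, and 0, 0, 1 and 2 in those of the cord. Of all genes tested, it called 25.5%, 28.7%, 34.2% and 7.3% in the DRG, and 2.54%, 3.76%, 18.9% and 5.92% in the cord. Without Cebpb and Ddit4, 11 of 15 Atf4 targets were called after injury in wild type and 9 of 15 in knockout. Few counts lay behind Trib3 in cord, at 0.0889 to 0.779 CPM, and behind Cebpb.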

Other observations

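Vcp, an ATPase that pulls proteins out of the ER membrane for degradation, is named here after its values were seen. It lies 1.224 Mb from the targeted gene on the same chromosome. Whether its level follows from that position or from the loss of the targeted gene was not tested. Vcp was at 246, 214, 277, 275 and 195 CPM in naive wild-type DRG and 809, 728, 755, 762 and 791 CPM in naive knockout DRG, without overlap. The log2 fold change of knockout against wild type was 1.67 ± 0.12 in naive and 1.5 ± 0.14 in injured DRG, and 1.14 ± 0.04 in naive and 1.15 ± 0.05 in injured cord (edgeR adjusted p = 3.8e-08, 1e-06, 8.2e-16 and 8.7e-15).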
